A study of Mus musculus with 12 samples.

Results

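Sestrins, DDIT4, DEPTOR, the tuberous sclerosis proteins and the 4E-BPs restrain mTORC1 or are restrained by it, and their 9 genes, Sesn1, Sesn2, Sesn3, Ddit4, Deptor, Tsc1, Tsc2, Eif4ebp1 and Eif4ebp2, are described here in mouse liver after Eif3m knockdown. They were chosen by symbol as named negative regulators of mTORC1 and as 4E-BPs, by a rule that uses no measured value, though earlier results of these data were known when they were proposed. All 9 were among the 50686 genes of the deposited count table and all 9 were among the 14248 genes that passed the filter on low counts.

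The livers came from FVB/N mice that were 6 to 8 weeks old when injected through the tail vein with siRNA in lipid nanoparticles. The dose was 0.5 mg/kg, with 1 injection per interval of 5 days. On that schedule the number of injections may differ between day 9 and day 13. Each of 4 groups held 3 libraries: luciferase control siRNA (called scrambled luciferase in the labels' protocol) at day 9, Eif3m siRNA at day 9, the same control at day 13 and Eif3m siRNA at day 13. The nanoparticle injection was thus common to the controls and the knockdown livers. The labels do not say which liver cells took up the siRNA, nor whether the 3 libraries of a group are 3 animals, so a p-value here reflects only how far these libraries spread, which may be technical.

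mTORC1 is a kinase complex on the lysosome that promotes protein synthesis when amino acids, growth factors and energy are sufficient. Sestrins bind the GATOR2 complex and hold back the amino acid signal to the Rag GTPases, DDIT4 (also called REDD1) acts through the TSC1-TSC2 complex, which switches off the GTPase RHEB, and DEPTOR binds the kinase itself. The 4E-BPs are substrates of mTORC1: when not phosphorylated they bind the cap-binding protein eIF4E and keep it out of the initiation complex eIF4F, to which eIF3 connects the small ribosomal subunit. Several of these genes are known transcriptional targets of stress pathways, Sesn1 and Sesn2 of p53, Sesn2, Ddit4 and Eif4ebp1 of ATF4, Sesn3 of FOXO factors, and Ddit4 also of the glucocorticoid receptor and of hypoxia.

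Day 9 libraries held 38783564 to 54538581 counts and were labelled as KAPA mRNA capture, and day 13 libraries held 7650269 to 9630027 counts and were labelled as Neoprep. Day, library preparation, depth and any difference in the number of injections cannot be told apart, so each siRNA effect was taken against controls of its own day. The targeted transcript fell in both comparisons, with 1753 to 2257 counts in the day 9 controls against 228 to 287 with Eif3m siRNA, and 267 to 296 against 18 to 26 at day 13. Eif3m stood at 10.7% and 6.53% of the control mean, with log2 fold changes of -3.23 (SE 0.114, edgeR adjusted p = 1.92e-09) and -3.94 (SE 0.143, edgeR adjusted p = 2.66e-09). Hepatocyte markers (7 of 8 listed) summed in every library to at least 86249 CPM (counts per 1000000 reads, with library sizes scaled by the TMM method), and their sums were lower in the siRNA livers at both days. Day 13 control replicate 3 and day 13 siRNA replicate 2 stood apart along component 3 of a principal component analysis (9.44% of the variance), at -52.0 and -36.9 against 4.68 to 37.6 in the other 4 libraries of that day. The calls of members without both libraries are given beside the results.

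Sesn2 rose and Sesn1 and Eif4ebp2 fell at both days. Ddit4 fell at day 13, was not called at day 9, and had an effect that differed between the days. Sesn3, Deptor, Tsc1, Tsc2 and Eif4ebp1 did not pass the test at either day. At day 9, 1 of the 9 genes was called higher and 2 lower, at an edgeR adjusted p under 0.05, where 5.94% and 6.84% of all genes tested were called in those directions and 12.8% in either. At day 13, 1 was called higher and 3 lower, against 12.8% and 10.9% of all genes, or 23.7% in either direction. For the difference between the days, none was called higher and 1 lower, against 0.898% and 1.66% of all genes. The siRNA libraries all lay above the controls for 1 gene and all below for 3 at day 9, where 22.5% and 21% of all genes did so, and for 2 and 3 genes at day 13, where 17.2% and 16% did. The median log2 fold change of the 9 genes was -0.11 at day 9 and -0.05 at day 13, and that of all genes tested was 0.01 and 0.00.

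**Figure D1:**
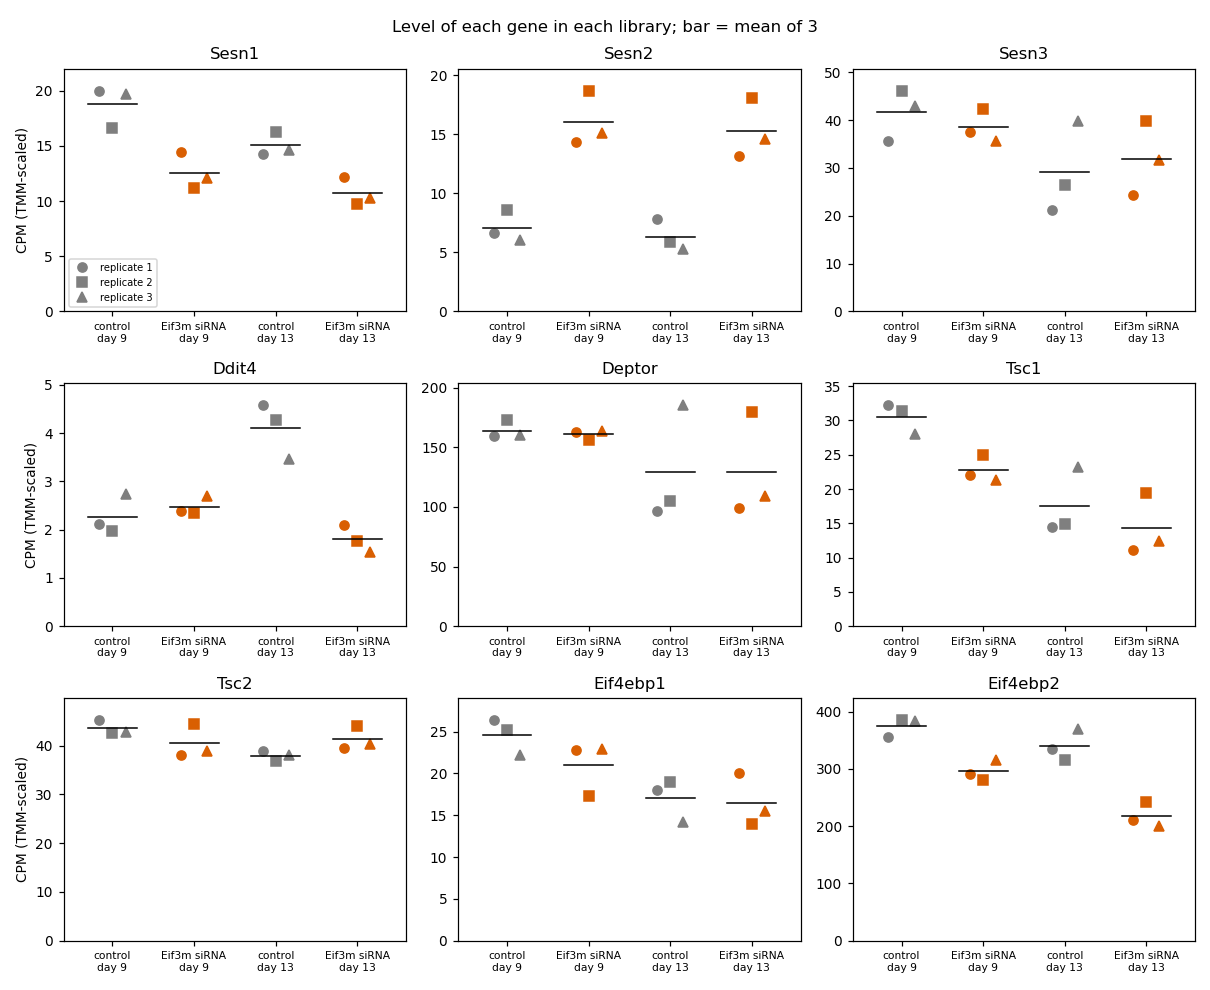
CPM of each of the 9 genes (vertical axes, linear from 0, a separate scale for each gene) in the 3 libraries of each group, with replicates by symbol and a bar for the mean. Sesn2 is higher and Sesn1 and Eif4ebp2 are lower in every siRNA library than in any control library of the same day, and Deptor is high in day 13 control replicate 3 and day 13 siRNA replicate 2.

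The sestrins moved in opposite directions. Sesn2 (ENSMUSG00000028893, chromosome 4 from 132492032 to 132510501, minus strand, mm10), which encodes a stress-inducible leucine sensor, was at 6.69, 8.55 and 6.06 CPM in the day 9 controls and at 14.4, 18.7 and 15.1 CPM in the day 9 siRNA livers. The day 13 values were 7.81, 5.84 and 5.31 CPM in the controls and 13.1, 18.1 and 14.6 CPM in the siRNA livers. The groups did not overlap at either day, and siRNA replicate 2 was the highest of its group at each day. The mean went from 7.10 ± 1.299 to 16.1 ± 2.30 CPM at day 9 and from 6.32 ± 1.32 to 15.3 ± 2.54 CPM at day 13 (SD, n = 3). The log2 fold changes were 1.18 (SE 0.172, edgeR adjusted p = 0.000825) and 1.29 (SE 0.205, edgeR adjusted p = 0.000540), and these effects differed by 0.11, which was not called (edgeR adjusted p = 0.878). Each of the 22 alternatives kept the call of Sesn2 at each day, with the lowest value, 1.01 at day 13, without the day 13 libraries that stood apart.

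Sesn1 (ENSMUSG00000038332, chromosome 10 from 41809935 to 41908424, plus strand), a sestrin known as a p53 target, was at 20.005, 16.6 and 19.7 CPM in the day 9 controls and at 14.4, 11.1 and 12.1 CPM in the siRNA livers. Control values at day 13 were 14.3, 16.2 and 14.6 CPM, and siRNA values were 12.2, 9.74 and 10.3 CPM. Every siRNA library was below every control library of its day. Sesn1 fell to 66.8% of the control mean at day 9, a log2 fold change of -0.58 (SE 0.129, edgeR adjusted p = 0.0106), and to 71.3% at day 13, -0.49 (SE 0.150, edgeR adjusted p = 0.0286). The day 9 call was lost without day 9 siRNA replicate 2 (-0.51, adjusted p = 0.0587) and with counts thinned to the day 13 depth, over a range of 0.000621 to 0.0860 across alternatives. The day 13 call was lost in 6 of 22 alternatives, among them leaving out control replicate 2 (-0.43, adjusted p = 0.0902), siRNA replicate 2 (-0.44, adjusted p = 0.087) or siRNA replicate 3 (-0.48, adjusted p = 0.0848), and leaving out both libraries that stood apart (-0.46, adjusted p = 0.0974), over a range of 0.0186 to 0.0974.

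Sesn3 (ENSMUSG00000032009, chromosome 9 from 14275067 to 14333101, plus strand), the sestrin known as a FOXO target, did not pass the test. It was at 35.7, 46.2 and 42.9 CPM in the day 9 controls and at 37.5, 42.2 and 35.7 CPM in the siRNA livers, with a log2 fold change of -0.11 (SE 0.204, edgeR adjusted p = 0.772). At day 13 the values were 21.3, 26.4 and 39.9 CPM in the controls and 24.3, 39.9 and 31.6 CPM in the siRNA livers, and the log2 fold change was 0.13 (SE 0.219, edgeR adjusted p = 0.715). The highest control and the highest siRNA library at day 13 were those that stood apart from the rest, and without both the value was 0.23 (SE 0.174).

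Because Sesn2 rose while Sesn1 fell, the order of these transcripts turned. Levels of different genes are compared here only as CPM per kilobase of merged exons (CPM per kb), which depends on the annotated exon length and takes no account of which isoform is used. In the day 9 controls Sesn1 stood at 4.71 ± 0.472 and Sesn2 at 2.04 ± 0.374 CPM per kb, and in the day 9 siRNA livers Sesn1 stood at 3.15 ± 0.421 and Sesn2 at 4.63 ± 0.663 CPM per kb (SD, n = 3). The ratio of Sesn2 to Sesn1 per kb was 0.383, 0.590 and 0.352 in the day 9 controls and 1.14, 1.92 and 1.44 in the day 9 siRNA livers. The day 13 ratios were 0.627, 0.412 and 0.416 in the controls and 1.24, 2.13 and 1.62 in the siRNA livers. All 6 control libraries lay under a ratio of 1 and all 6 siRNA libraries above it. This ratio is a description of transcripts that were each tested above, and it was not tested itself.

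**Figure D2:**
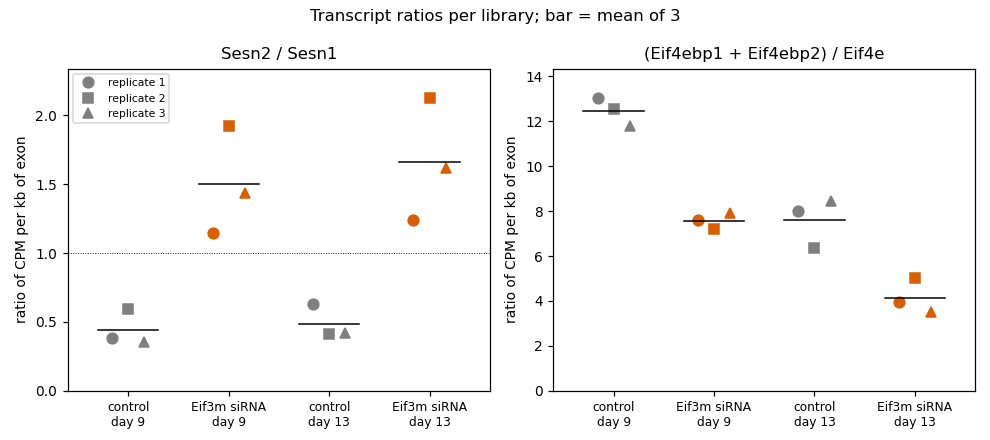
Left, the ratio of Sesn2 to Sesn1 in each library, and right, the ratio of Eif4ebp1 plus Eif4ebp2 to Eif4e, each as CPM per kb of exon on a linear axis from 0, with replicates by symbol and a bar for the mean. The Sesn2 to Sesn1 ratio lies between 0.352 and 0.627 in control libraries and between 1.14 and 2.13 in siRNA libraries.

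Among the inhibitors upstream of RHEB, Ddit4 (ENSMUSG00000020108, chromosome 10 from 59949669 to 59951834, minus strand) was the 1 member whose effect differed between the days. It was at 2.11, 1.97 and 2.73 CPM in the day 9 controls and at 2.39, 2.33 and 2.70 CPM in the day 9 siRNA livers, with overlapping groups and a log2 fold change of 0.13 (SE 0.183, edgeR adjusted p = 0.710). At day 13 the controls were at 4.58, 4.27 and 3.47 CPM and the siRNA livers at 2.10, 1.76 and 1.53 CPM, without overlap. Ddit4 fell to 43.8% of the control mean at day 13, a log2 fold change of -1.19 (SE 0.240, edgeR adjusted p = 0.00273), and 21 of 21 alternatives kept that call (-1.32 without the libraries that stood apart). These values rest on 82 to 140 counts a library at day 9 and 14 to 34 at day 13.

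The difference of the Ddit4 effect between the days was -1.32 (SE 0.302, edgeR adjusted p = 0.0398), where 2.55% of all genes tested were called. That call was lost in 13 of 20 alternatives, with values of -1.48 to -1.23 and adjusted p of 0.0112 to 0.107 over all of them. Without the libraries that stood apart the difference was -1.43 (adjusted p = 0.0465). The 13 losses included the replicate block (adjusted p = 0.0739), limma-voom (0.0632) and leaving out any of 9 libraries, all but day 9 control replicate 3, day 13 control replicate 3 and day 13 siRNA replicate 1. The day 13 siRNA mean, 1.80 ± 0.284 CPM, was below the day 9 control mean of 2.27 ± 0.402 CPM, and the day 13 control mean, 4.11 ± 0.574 CPM, was above it (SD, n = 3). Levels at different days carry the day, preparation and depth together and were not compared by a test.

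Tsc1 and Tsc2 encode the scaffold and the GTPase-activating subunit of the TSC complex, and neither passed the test. Tsc1 (ENSMUSG00000026812, chromosome 2 from 28641228 to 28691167, plus strand) was at 32.2, 31.4 and 28.1 CPM in the day 9 controls and at 22.0, 24.9 and 21.4 CPM in the siRNA livers, so the groups did not overlap. Its log2 fold change of -0.42 (SE 0.188) had an edgeR adjusted p of 0.162. It was called when the day 9 libraries were fitted alone (-0.42, adjusted p = 0.0113) and without the day 13 libraries that stood apart (-0.44, adjusted p = 0.00603), over a range of 0.00603 to 0.343. The first of those fits left out every day 13 library and the other only the high ones. Leaving out either high library alone did not give the call, and why the call came was not tested. At day 13 Tsc1 was at 14.4, 15.0 and 23.2 CPM in the controls and at 11.0, 19.4 and 12.5 CPM in the siRNA livers, with a log2 fold change of -0.29 (SE 0.214, edgeR adjusted p = 0.367). Without siRNA replicate 2, its highest siRNA library, the value was -0.59 (adjusted p = 0.0477, over a range of 0.0477 to 0.919).

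Tsc2 (ENSMUSG00000002496, chromosome 17 from 24595816 to 24632630, minus strand) was at 45.3, 42.7 and 42.8 CPM in the day 9 controls and at 38.2, 44.5 and 38.9 CPM in the siRNA livers. In the day 13 livers the controls stood at 38.9, 36.8 and 38.1 CPM and the siRNA group at 39.6, 44.0 and 40.4 CPM. The log2 fold changes were -0.11 (SE 0.0962, edgeR adjusted p = 0.524) and 0.12 (SE 0.102, edgeR adjusted p = 0.415). The day 13 groups did not overlap although the shift was small, as held for 33.2% of all genes tested at that day. Its exons share up to 693 bases with Pkd1 on the opposite strand, and since the strand setting is not given in the sources used here, reads of the 2 genes may not be told apart. Pkd1 itself fell at day 13 (log2 fold change -0.79, edgeR adjusted p = 0.00677).

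Deptor (ENSMUSG00000022419, chromosome 15 from 55112317 to 55259271, plus strand), the inhibitor that binds mTOR directly, was not called at either day, and 2 libraries set its spread at day 13. It was at 159, 173 and 160 CPM in the day 9 controls and at 163, 156 and 164 CPM in the siRNA livers, with a log2 fold change of -0.03 (SE 0.241, edgeR adjusted p = 0.958). The day 13 livers were at 96.6, 105 and 185 CPM in the controls and at 98.9, 180 and 109 CPM in the siRNA livers, with a log2 fold change of 0.00 (SE 0.246, edgeR adjusted p = 0.995). The high control and the high siRNA library were the pair that stood apart. Without both the value was 0.03 with an SE of 0.103, and without siRNA replicate 2 alone it was -0.32. Exons of Deptor share 303 bases with Gm9920, a processed transcript on the opposite strand.

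The 4E-BP transcripts differed in level, and only Eif4ebp2 was called. Eif4ebp2 (ENSMUSG00000020091, chromosome 10 from 61428491 to 61452661, minus strand) was at 356, 386 and 384 CPM in the day 9 controls and at 291, 281 and 315 CPM in the siRNA livers. By day 13 the controls stood at 334, 315 and 370 CPM and the siRNA livers at 211, 242 and 201 CPM. No siRNA library reached the lowest control of its day. Eif4ebp2 fell to 78.9% of the control mean at day 9, a log2 fold change of -0.34 (SE 0.106, edgeR adjusted p = 0.0483), and to 64.1% at day 13, -0.64 (SE 0.107, edgeR adjusted p = 0.000760). The day 13 call held in 22 of 22 alternatives. The day 9 call was lost in 13 of 22, with values of -0.38 to -0.31 and adjusted p of 0.00213 to 0.133, among them the replicate block (adjusted p = 0.125) and leaving out any of the 6 day 9 libraries. Without the day 13 libraries that stood apart it was kept (-0.36, adjusted p = 0.0115). The day 13 effect was lower than the day 9 effect by -0.30, which was not called (edgeR adjusted p = 0.314).

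Eif4ebp1 (ENSMUSG00000031490, chromosome 8 from 27260329 to 27276674, plus strand), the 4E-BP known as an ATF4 target, was at 26.4, 25.2 and 22.2 CPM in the day 9 controls and at 22.8, 17.3 and 23.0 CPM in the siRNA livers. At day 13 it was at 18.0, 19.0 and 14.2 CPM in the controls and at 19.9999, 13.9 and 15.5 CPM in the siRNA livers. The groups overlapped at both days, and the log2 fold changes were -0.23 (SE 0.153, edgeR adjusted p = 0.370) and -0.05 (SE 0.173, edgeR adjusted p = 0.862). Per kb of exon, Eif4ebp2 exceeded Eif4ebp1 by ratios of 5.12 to 6.55 among day 9 controls and of 6.32 to 9.91 among day 13 controls. Among the siRNA livers the ratios were 4.85 to 6.16 at day 9 and 4.01 to 6.59 at day 13, overlapping the controls. Whether the responses of Eif4ebp1 and Eif4ebp2 differed was not tested. Eif4ebp3, the remaining 4E-BP gene, spread widely within groups, with day 9 controls between 6.25 and 12.7 CPM and day 13 siRNA livers between 5.19 and 15.7 CPM, and was not called.

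The partner of the 4E-BPs moved the other way at day 9. Eif4e, the cap-binding protein, was at 33.9, 37.3 and 39.0 CPM in the day 9 controls and at 47.9, 47.0 and 49.3 CPM in the siRNA livers, a rise of 0.39 on the log2 scale (SE 0.112, edgeR adjusted p = 0.0366). At day 13 it was at 49.7, 59.6 and 50.1 CPM against 69.5, 57.7 and 71.8 CPM, with a log2 fold change of 0.32 (SE 0.116) that did not pass the threshold (edgeR adjusted p = 0.0599). The summed level of Eif4ebp1 and Eif4ebp2 per kb, divided by that of Eif4e, was 13.0, 12.6 and 11.8 in the day 9 controls and 7.62, 7.22 and 7.91 in the siRNA livers. At day 13 the ratio was 7.99, 6.37 and 8.44 in the controls and 3.95, 5.01 and 3.49 in the siRNA livers. The ratio was lower in each siRNA library than in any control of its day, and it was not tested. Transcript ratios say nothing of the phosphorylation that governs the binding of these proteins.

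**Figure D3:**
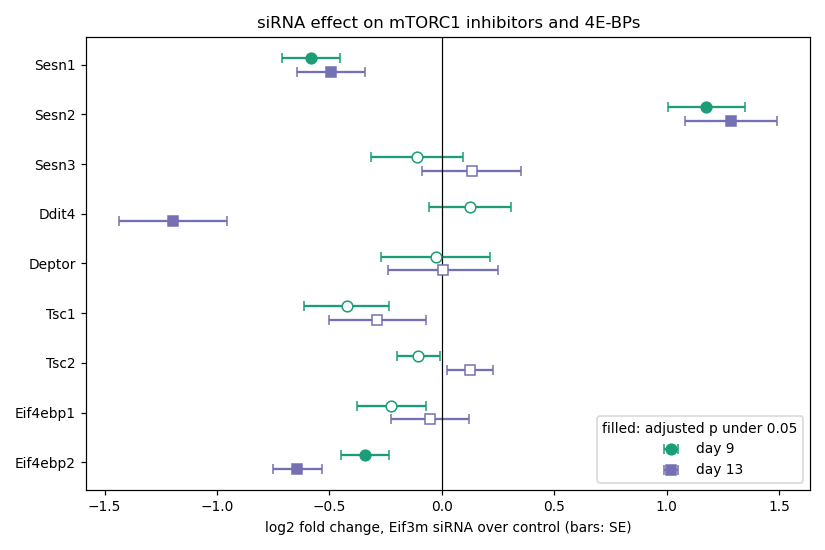
Log2 fold change of Eif3m siRNA over control for each gene (horizontal axis, bars are the SE) at day 9 (circles) and day 13 (squares), filled where the edgeR adjusted p was under 0.05. Sesn2 lies at 1.18 and 1.29, Sesn1 and Eif4ebp2 lie under 0 at both days, and Ddit4 lies at 0.13 and -1.19.

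Ordered by CPM per kb, the 9 transcripts spanned a wide range of levels. In the day 9 controls Eif4ebp2 was highest at 64.9 ± 2.82, followed by Deptor at 18.5 ± 0.877, Eif4ebp1 at 11.2 ± 0.971, Sesn1 at 4.71 ± 0.472, Tsc2 at 4.53 ± 0.155, Sesn3 at 2.72 ± 0.351, Tsc1 at 2.58 ± 0.184, Sesn2 at 2.04 ± 0.374 and Ddit4 at 1.29 ± 0.229 CPM per kb (SD, n = 3). The libraries of Sesn1 and Tsc2, of Sesn3 and Tsc1, and of Tsc1 and Sesn2 overlapped, so these neighbours were not separated beyond their spread. In the day 9 siRNA livers Sesn2, at 4.63 ± 0.663 CPM per kb, took the place after Eif4ebp1 and overlapped Tsc2 at 4.21 ± 0.360. The first 3 places were the same in all 4 groups, and Sesn2 had rank 4 in both siRNA groups and rank 8 in both control groups.

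Sequences before the start sites are shown for the 4 genes that were called. Whether the promoters were regulated, and which Sesn1 start was used in these livers, was not tested. RefSeq windows of 300 bases on GRCm38.p6 (the mm10 assembly, from C57BL/6J and not from FVB/N), 250 before and 50 after the annotated start, were found for 7 of the 9 genes, and Deptor and Eif4ebp1 had none. Windows on the strand of the gene are those of Sesn2 at chr4:132510407-132510706 (minus), the first of the 2 Sesn1 starts at chr10:41810324-41810623 (plus), Ddit4 at chr10:59951721-59952020 (minus) and Eif4ebp2 at chr10:61452620-61452919 (minus). Both strands were searched for the ATF4 composite element core TGATGNAA, the FOXO element GTAAACA, the E-box CACGTG, the hypoxia element core ACGTG, which lies within the E-box, and the CCAAT box CCAAT, added after the sequences were seen. Capitals mark the matches.
Sesn2: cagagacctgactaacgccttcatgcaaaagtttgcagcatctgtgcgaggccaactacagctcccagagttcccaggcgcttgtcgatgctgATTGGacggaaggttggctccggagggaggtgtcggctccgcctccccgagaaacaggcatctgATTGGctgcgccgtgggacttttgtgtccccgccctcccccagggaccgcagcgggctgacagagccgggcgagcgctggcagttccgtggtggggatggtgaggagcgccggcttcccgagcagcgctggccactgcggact
Sesn1: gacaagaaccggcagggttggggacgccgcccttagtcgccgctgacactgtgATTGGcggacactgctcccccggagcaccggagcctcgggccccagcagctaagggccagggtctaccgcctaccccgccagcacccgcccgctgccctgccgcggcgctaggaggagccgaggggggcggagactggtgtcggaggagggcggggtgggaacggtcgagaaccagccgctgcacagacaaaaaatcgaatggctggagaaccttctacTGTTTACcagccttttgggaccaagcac
Ddit4: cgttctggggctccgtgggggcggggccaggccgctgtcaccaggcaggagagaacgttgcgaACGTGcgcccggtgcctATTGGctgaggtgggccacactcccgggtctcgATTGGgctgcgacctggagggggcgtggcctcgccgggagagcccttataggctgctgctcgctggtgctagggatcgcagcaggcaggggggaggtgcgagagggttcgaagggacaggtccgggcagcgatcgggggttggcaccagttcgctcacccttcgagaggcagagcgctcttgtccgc
Eif4ebp2: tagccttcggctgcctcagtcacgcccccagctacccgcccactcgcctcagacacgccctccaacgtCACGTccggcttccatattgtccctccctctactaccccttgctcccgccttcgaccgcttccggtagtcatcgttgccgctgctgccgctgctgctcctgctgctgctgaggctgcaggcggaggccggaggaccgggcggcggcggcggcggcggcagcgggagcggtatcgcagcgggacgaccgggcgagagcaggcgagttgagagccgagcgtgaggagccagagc

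None of the 8 windows of the members held the ATF4 core or the E-box, which stood in 3.97% and 7.15% of 32851 windows of all genes. The Sesn1 window held the reverse complement TGTTTAC of the FOXO element 22 bases after the start, and 3.65% of all windows held a match. Ddit4 held the hypoxia core 187 bases before the start and Eif4ebp2 held its reverse complement CACGT 182 bases before the start, as did 19.6% of all windows. CCAAT boxes, all as ATTGG on the gene strand, stood in the windows of Sesn2 (2 matches), Ddit4 (2), Sesn3 (4) and each Sesn1 start (1), in none of Tsc1, Tsc2 and Eif4ebp2, and in 37.4% of all windows. A match describes letters only, and an element outside these windows was not searched.

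The other genes of the mTORC1 pathway were called at shares near or below those of all genes. Of 79 tested in 6 lists, 5 were higher and 2 lower at day 9, and 10 were higher and 5 lower at day 13, with a median log2 fold change of 0.04 and 0.05. The shares of all genes tested were 5.94% and 6.84% at day 9 and 12.8% and 10.9% at day 13. In the mTOR complexes, with 11 genes, Mapkap1, the mTORC2 subunit also called SIN1, rose by 0.34 and 0.49 on the log2 scale at day 9 and day 13 (edgeR adjusted p = 0.0375 and 0.00371). Rictor, another mTORC2 subunit, rose by 0.63 at day 13 with overlapping groups (edgeR adjusted p = 0.0466). Limma-voom called 1 gene of this list at day 13. The kinase gene Mtor (0.16 and -0.15) and the mTORC1 subunit Rptor (-0.03 and -0.17) were not called.

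In the amino acid branch on which sestrins act, 11 genes of GATOR1, KICSTOR and GATOR2 were tested, with 1 called higher at day 9 and 3 at day 13. Seh1l, a GATOR2 subunit that is also a nucleoporin, was at 39.4, 48.3 and 42.8 CPM in the day 9 controls and at 59.9, 58.6 and 61.5 CPM in the siRNA livers. At day 13 Seh1l was at 25.4, 30.2 and 35.2 CPM against 49.5, 66.4 and 56.6 CPM, a log2 fold change of 0.92 (SE 0.141, edgeR adjusted p = 0.000405). Itfg2 of KICSTOR rose by 0.89 and Mios of GATOR2 by 0.57 on the log2 scale at day 13 (edgeR adjusted p = 0.00429 and 0.0203). The groups overlapped for Mios. Of 15 Rag, Ragulator and lysosomal sensor genes none was called at day 9 by edgeR (4 had an unadjusted p under 0.05, and DESeq2 and limma-voom each called 1) and 1 at day 13. This was Fnip2, a partner of folliculin, at 33.1, 28.4 and 34.7 CPM in the day 13 controls against 13.4, 21.0 and 14.7 CPM (log2 fold change -0.96, edgeR adjusted p = 0.00660).

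In the growth factor and energy branches, 12 genes of insulin, AKT and RHEB input had no edgeR call at day 9 (2 at an unadjusted p under 0.05, 0 by DESeq2, 1 by limma-voom). EdgeR called 2 of them at day 13, where limma-voom called 1. Among the edgeR calls was Akt1, a kinase of insulin signalling, at -0.30 (edgeR adjusted p = 0.0489). Rheb, the target of the TSC complex, was at 0.07 and 0.18 and was not called. None of 9 genes of AMP-activated kinase and its activators was called by edgeR at either day, with 2 and 1 at an unadjusted p under 0.05, 2 and 1 by DESeq2 and 1 and 0 by limma-voom. Of 21 substrates of mTORC1 and parts of eIF4F, 3 were higher and 2 lower at day 9, and 4 were higher and 3 lower at day 13. Eif4g2, an eIF4G-like factor that does not bind eIF4E, rose from 481 ± 41.2 to 800 ± 47.7 CPM at day 9 and from 270 ± 50.4 to 724 ± 75.3 CPM at day 13 (SD, n = 3). Pdcd4, an inhibitor of the helicase eIF4A, fell by 0.65 and 0.46, and Eef2k, the kinase that inhibits elongation factor 2, fell by 0.87 and 1.20 on the log2 scale. Larp1, which binds the messenger RNAs of ribosomal proteins, rose by 0.61 at day 13 (edgeR adjusted p = 0.00345).

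**Figure D4:**
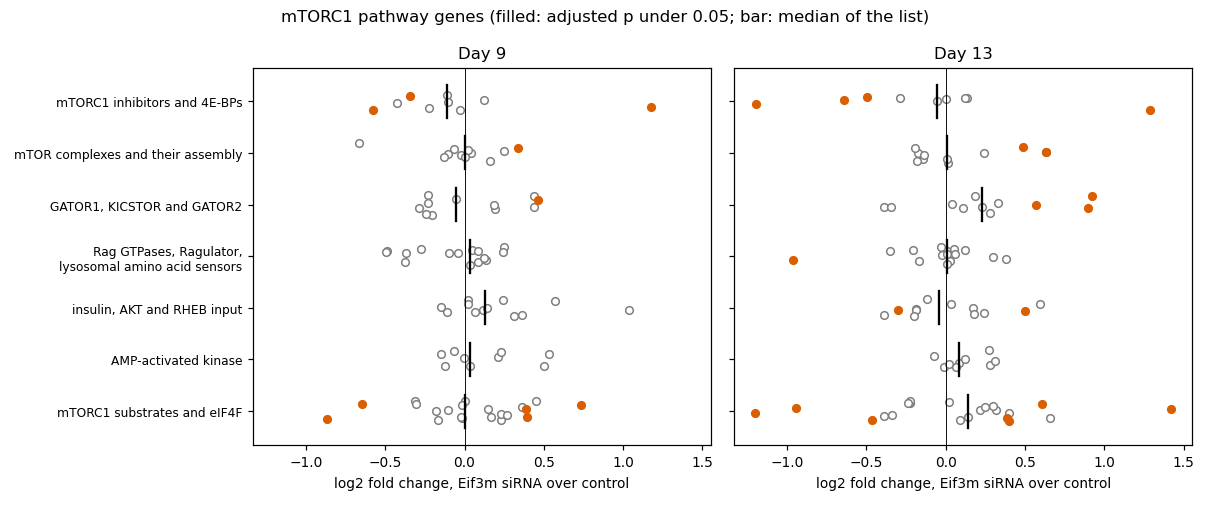
Log2 fold change of Eif3m siRNA over control (horizontal axes) of the 9 genes and of the genes of 6 pathway lists at day 9 (left) and day 13 (right), 1 point a gene, filled where the edgeR adjusted p was under 0.05, with a bar at the median of each list. List medians lie between -0.11 and 0.23, and the calls are spread over both directions.

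Known targets of the factors that drive these genes are set beside them, as lists chosen with earlier results of these data known. Of 10 p53 targets, 10 were higher at day 9 and 9 at day 13 with none lower (5.94% and 12.8% of all genes were called higher), with medians of 1.92 and 1.51 on the log2 scale. Cdkn1a stood at 5.44 and 5.07, Aen at 1.67 and 1.83. Sesn1, also known as a p53 target, fell at both days while Sesn2 rose. The transcript of p53 itself, Trp53, rose at day 13 (log2 fold change 0.50, edgeR adjusted p = 0.0174).

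Of 8 ATF4 targets tested, 4 were called higher at each day, none was called lower and 4 were not called. Among those called were Ddit3 at 2.60 and 4.20, Trib3 at 1.69 and 5.16 and Atf5 at 1.99 and 2.73 on the log2 scale. Without overlap, 6 of the 8 lay higher and 0 lower at day 9, where 22.5% and 21% of all genes did. By the same measure 6 lay higher and 1 lower at day 13, where 17.2% and 16% of all genes did. The effects on Ddit3 and Trib3 were larger at day 13 than at day 9, by 1.60 (edgeR adjusted p = 0.0295) and 3.47 (edgeR adjusted p = 0.00277), while that on Ddit4 was lower by 1.32 and those on Sesn2 and Eif4ebp1 did not pass this test. Of 9 FOXO targets, 3 were higher and 1 lower at day 9 and 2 higher and 1 lower at day 13. Of all genes, 5.94% were called higher and 6.84% lower at day 9, and 12.8% and 10.9% at day 13. Igfbp1 stood at 2.86 and 3.49, Cited2 at -1.10 and -0.45.

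Of 8 glucocorticoid receptor targets, 1 was higher and 2 lower at day 9, and 2 were higher and 2 lower at day 13. The shares of all genes called higher and lower were 5.94% and 6.84% at day 9 and 12.8% and 10.9% at day 13. Per1, a clock gene that glucocorticoids induce, was at 10.7, 12.5 and 21.8 CPM in the day 9 controls against 29.0, 25.7 and 29.1 CPM, and at 20.3, 10.5 and 21.2 CPM in the day 13 controls against 6.01, 7.23 and 3.18 CPM. The targets called at day 9 were Sgk1, which was higher, and Mt2 and Mt1, which were lower, and Per1 was not called there. The Per1 effect was lower at day 13 than at day 9, by a log2 difference of -2.56 (edgeR adjusted p = 0.0199). Per1 was the 1 of these 8 targets called for this difference by edgeR, and 7 were not, where 2.55% of all genes were called. DESeq2 called 4 of the 8 for the difference and limma-voom 1. For Sgk1, at 1.19 and 1.25, the difference of 0.06 was not called (edgeR adjusted p = 0.943). The transcripts Atf4, Foxo1, Foxo3, Nr3c1, Hif1a and Nfe2l2 were not called at either day by edgeR. At day 9 none of these factors, Trp53 included, was under an unadjusted p of 0.05 or called by DESeq2 or limma-voom. At day 13, 2 of the 7 were under an unadjusted p of 0.05, DESeq2 called 2 and limma-voom called 1.

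In whole liver, fewer cells of a type and less RNA per cell cannot be told apart. Beside the marker calls below, 5.94% of all genes were called higher and 6.84% lower at day 9, and 12.8% and 10.9% at day 13. Summed Kupffer cell markers (7 genes) were at 261 to 319 CPM in the day 9 controls against 176 to 215 CPM, and at 232 to 301 CPM in the day 13 controls against 104 to 170 CPM, with 3 and 6 of 7 genes called lower. Hepatocyte markers (7 genes) summed to 114568 to 119181 CPM in the day 9 controls against 86249 to 95726 CPM, with 1 gene called lower, and to 172332 to 197130 CPM in the day 13 controls against 100612 to 159748 CPM, with 3 called lower and 1 higher. Both sums were lower with siRNA without overlap at each day, as were Sesn1 and Eif4ebp2. Single hepatocyte genes went both ways. At day 9, 3 of 7 lay lower and 2 higher without overlap, where 21% and 22.5% of all genes did. At day 13, 2 lay lower and 1 higher without overlap, where 16% and 17.2% of all genes did. At day 13, beside the fall of Ddit4, erythroid markers (5 genes) summed to 2106 to 5962 CPM in the controls against 704 to 1851 CPM and stellate cell markers (7 genes) to 362 to 515 CPM against 299 to 319 CPM, with 3 of 5 and 2 of 7 genes called lower. At day 9 the erythroid sums overlapped, at 596 to 789 CPM against 399 to 712 CPM, with no gene called by edgeR, DESeq2 or limma-voom. The stellate sums at day 9 were higher with siRNA, at 215 to 288 CPM against 291 to 331 CPM, with 1 gene called higher. Monocyte and macrophage markers (7 genes, 3 called higher at day 9 and 1 lower at day 13) summed to between 43.5 and 54.2 CPM in day 9 controls and between 108 and 123 CPM with siRNA, and at day 13 stood at 108 to 150 CPM in the controls against 66.6 to 81.8 CPM, whereas Sesn2 was higher with siRNA at both days. Sinusoidal endothelial markers (7 genes) had 1 gene called higher at day 9 and 2 called lower at day 13, and cholangiocyte markers (5 tested) had none by edgeR, unadjusted p, DESeq2 or limma-voom at day 9 and 1 called higher at day 13. Markers of neutrophils (3 tested), of B lineage cells (5) and of T cells with NK cells (6) had no call by edgeR, DESeq2 or limma-voom at either day, with 1 B lineage gene at an unadjusted p under 0.05 at day 9, and summed to under 9 CPM in every library. No marker of these lists was at 0 in all 12 libraries, and the part of any of these cells in the results was not tested.

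By their pattern over the 12 libraries, centred within each day, the genes most like each member among 9312 with a mean of at least 5 CPM were taken by Pearson r, as a description that shares libraries and the siRNA effect. Sesn2 was most like Serpina7, which encodes thyroxine-binding globulin (r = 0.97), and Utp18, a ribosome biogenesis factor (r = 0.97). Sesn1 was most like Vegfb (r = 0.96) and Acad8 (r = 0.96), and Eif4ebp2 most like Aldh3a2 (r = 0.99) and Acad9 (r = 0.98). Ddit4 was most like Il18bp (r = 0.97), which stood at 0.20 at day 9 and -1.12 at day 13 on the log2 scale, and A1bg (r = 0.95). Deptor was most like Kdm5a (r = 0.97) and Frs2 (r = 0.97), neither of which was called at either day. Its spread lay mainly at day 13, where the libraries that stood apart were at 185 and 180 CPM and the rest at 96.6 to 109 CPM. Sesn3 and Tsc1 were also highest in those libraries within their day 13 groups. How far these r values rest on those libraries was not tested. For the remaining members the first gene was Atxn1l for Sesn3, Zfp398 for Tsc1, Smc1a for Tsc2 and Acaa2 for Eif4ebp1, with r of 0.97, 0.94, 0.86 and 0.95.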

How the data were processed

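Messenger RNA from ground FVB/N livers was sequenced in 12 libraries of 4 groups of 3, grouped by the labels. The authors deposited estimated counts per Ensembl gene, with RSEM 1.3.0, STAR 2.5.3a and the build mm10 listed per the submitters' processing notes. What each tool did, the gene models, strand setting and any filters were not given in the sources used here. Deposited expected counts were whole numbers and were used as they stood. Symbols and exon lengths came from GENCODE M21, which named 50376 of 50686 genes, and unnamed genes held 0.0308% of the counts.

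Genes were kept by filterByExpr at a minimum count of 10 (14248 genes, at least 99.9% of the counts of each library). Libraries were scaled by TMM, and the main test was edgeR 4.0.16 (quasi-likelihood, robust, 8 residual degrees of freedom, two-sided) on all 12 libraries, with Benjamini-Hochberg adjustment over all genes and calls under 0.05. The SE was derived from the F statistic. With 3 against 3 libraries an exact permutation test cannot go below p = 0.1, and it gave 0.1 for Eif3m at each day.

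The members and lists were chosen with earlier results of these data known. The rule for named genes was Eif3m, the 9 members, up to 3 called genes with the smallest p in each list and day, and the 2 genes most like each member. Not all genes that this rule gave are named in the text. Those left out include Eda2r, Trp53inp1, Pck1, G6pc, Bcl6, the called cell type markers and the second like gene of some members. Others (Pkd1, Mtor, Rptor, Rheb, Eif4e, Eif4ebp3 and the factors that drive the members) were named for their role after values were seen. The listed symbols Kics2 and Tf matched no row. No protein sequences were used here. One result on a pathway gene is not reported here.

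Alternatives used DESeq2 1.42.0 (its size factors, and its test), limma 3.58.1 (voom), other filters, a replicate block, each day alone, thinned counts and leaving out each library. Leaving out both libraries that stood apart was added after the data were seen. Steps were tested on simulated data: of genes changed 2-fold, 70.1%, 49.3% and 31.3% were recovered for day 9, day 13 and the difference (14042, 14039 and 14037 genes). Of genes changed 1.5-fold, 29.9%, 20.9% and 1.49% were recovered. Each simulation changed 66 or 67 genes at each fold size, fewer in all than were called in the data, so recovery in the data may differ. No pair of replicates agreed within sampling noise (chi-square per degree of freedom of 12.6 or more). R 4.3.3 and Python 3.11.15 with matplotlib 3.10.9 were used.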

Additional observations from a re-analysis of the deposited data

Results flagged for a closer look

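The effect of Eif3m siRNA on Ddit4 differed between the days by -1.32 on the log2 scale (SE 0.302, edgeR adjusted p = 0.0398), by a test of that difference. The call was lost in 13 of 20 alternatives, among them the replicate block, limma-voom, no filter on low counts and thinned day 9 counts, with adjusted p of up to 0.107. Ddit4 stood at 2.27 ± 0.402 CPM in the day 9 controls and 2.47 ± 0.201 CPM with siRNA, and at 4.11 ± 0.574 and 1.80 ± 0.284 CPM at day 13 (SD, n = 3). The days differ in library preparation and depth as well, and may differ in the number of injections, and these cannot be told apart.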

How the results depend on the processing

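Sesn2 at each day, and Ddit4 and Eif4ebp2 at day 13, kept direction and call in all alternatives in which they were tested (22, 21 and 22). Labels give the groups shared replicate numbers. Deviations from the group mean correlated at -0.16 to 0.16 in same-numbered libraries of a day and at -0.14 to 0.23 in differently numbered ones. The ranges overlap, but with 3 libraries a group this cannot show that the libraries were unpaired. With the replicate block, members called lower at day 9 went from 2 to 1 and for the difference between the days from 1 to 0, pathway genes higher at day 9 from 5 to 3, and all genes higher at day 9 from 846 to 542 and for the difference from 128 higher and 236 lower to 28 and 89.

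Without a filter, 1 member was lower at day 9 and 0 for the difference, with 2 pathway genes higher and 4 lower at day 9, 3 lower at day 13 and 1 lower for the difference. With a mean of at least 5 CPM, which left out Ddit4, and with limma-voom, 0 members were called for the difference. Limma-voom called 9 pathway genes higher and 4 lower and 1315 genes higher at day 9. DESeq2 called 4 pathway genes lower at day 9, 1 higher and 1 lower for the difference, and 471 genes higher and 520 lower for the difference. With thinned day 9 counts, 0 members were lower at day 9 and 0 for the difference, 532 genes were higher at day 9, and 70 were higher and 134 lower for the difference.

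With each day on its own libraries, 14 pathway genes were higher and 6 lower at day 9 and 5 and 3 at day 13, beside 1687 and 1725 genes at day 9 and 1060 and 954 at day 13. Without the 2 day 13 libraries that stood apart, 10 pathway genes were higher and 6 lower at day 9, 1 higher and 1 lower for the difference, 1422 genes were higher and 1628 lower at day 9, and 288 were higher for the difference. The cause of these moves was not tested.

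Leaving out each library in turn gave 1 to 1 members higher and 0 to 2 lower at day 9, 1 to 1 and 2 to 3 at day 13, and 0 to 0 and 0 to 1 for the difference. Pathway genes ran from 1 to 7 higher and 1 to 5 lower at day 9, 6 to 12 and 3 to 7 at day 13, and 0 to 1 each for the difference. All genes ran from 413 to 1075 higher and 471 to 1190 lower at day 9, 1207 to 1752 and 1092 to 1566 at day 13, and 34 to 260 and 96 to 248 for the difference.

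Values that changed sign were all of members and comparisons that were not called. The difference between the days turned for Sesn1 with thinned counts (-0.058) and for Sesn2 without the libraries that stood apart (-0.16). Deptor at day 13 turned with upper-quartile scaling (-0.041) and a mean of at least 5 CPM (-0.012), and its difference with upper-quartile scaling (-0.014). With 1 library left out, the difference ran from -0.0022 to 0.19 for Sesn1, -0.056 to 0.29 for Sesn2, -0.28 to 0.37 for Deptor and -0.15 to 0.38 for Tsc1. The day 13 value ran from -0.072 to 0.41 for Sesn3, -0.32 to 0.34 for Deptor and -0.20 to 0.047 for Eif4ebp1, and the day 9 value of Deptor from -0.047 to 0.018. The day 13 depth of 14 to 34 counts limits what can be said of Ddit4.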
